A study of Homo sapiens with 6 samples.

Results

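The RNA levels of 32 known target genes of the tumor suppressor p53, among them the secreted cytokine GDF15, were followed through 6 human prostate cancer cell lines. The genes were chosen by name as known p53 targets, at a time when earlier results of these data were known, and each matched 1 protein-coding entry of the 45657 gene symbols kept in the tables. Of the 32, 29 averaged 1 scaled FPKM or more across the libraries and entered the tests among 17422 genes. EDA2R, SPATA18 and TP53I3 did not reach that mean and are given by level. A scaled FPKM is the number of reads of a gene relative to its length and to the reads of the library, divided by 1 factor per library, so that levels can be compared between genes as well as between libraries.

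The study sets 3 castration-sensitive lines beside 3 castration-resistant lines of the same lineages, with 1 total-RNA library for each line. LNCaP (written LnCaP in some labels) and LAPC4 were kept in RPMI medium and VCaP in DMEM, in each case with 10% fetal bovine serum. Their resistant counterparts LNCaP-abl, VCaP-CR and LAPC4-CR were kept in RPMI containing 10% fetal bovine serum that had been stripped of steroids with charcoal, together with 1X B27 supplement. No drug or other agent was added to any line. Castration state and medium therefore cannot be told apart in any pair, and in the VCaP pair the basal medium differed as well. LNCaP is known to carry wild-type p53, and VCaP and LAPC4 are known to carry mutant p53. p53 protein was not measured, and the status of a resistant line is taken here from its parent. With 1 wild-type lineage against 2 mutant lineages, p53 status and line cannot be told apart.

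p53 is a transcription factor that is stabilised by DNA damage and other stresses and binds DNA as a tetramer, on a site made of adjoining copies of a 10-base consensus. Its targets halt the cell cycle (CDKN1A, which encodes p21), repair DNA, trigger apoptosis (BBC3, PMAIP1, FAS), and feed back on p53 itself, above all through the ubiquitin ligase MDM2. GDF15 is a target that many other inputs also drive, including ATF4 and CHOP, the transcription factors of the integrated stress response. In prostate cells GDF15 is secreted in large amounts and its RNA is known to respond to androgens.

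Total counts ran from 8661337 to 22433655 per library. The lines carried the RNA of prostate luminal epithelium. All 7 markers of that cell type reached 1 scaled FPKM in at least 1 library, and their summed level ran from 338 to 992 in the sensitive and from 234 to 781 in the resistant libraries. KLK3, an androgen-driven gene, was however lower in each resistant line, and HOXB13 stood at 1.64 in LAPC4-CR. ERG, the oncogene that a gene fusion drives in VCaP, was at 16.6 in VCaP and 5.42 in VCaP-CR, and elsewhere at 0.191 or less. Of the markers of other cell types, none of 4 leukocyte genes reached 1 in any library. The summed level of 5 fibroblast genes ran from 1.59 to 5.0 in the sensitive and from 1.84 to 51.1 in the resistant libraries, the high value coming from LUM alone, at 49.8 in VCaP-CR, and 2 endothelial genes summed to at most 1.68. None of these markers was at 0 in every library.

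The stretch around the start of transcription was searched for the p53 consensus decamer by name: 3 purines, C, A or T at each of the central positions, G and 3 pyrimidines, which reads the same on both strands. RefSeq windows of 300 bases (250 before to 50 after the start, build GRCh38.p14) were at hand for 25 of the 32 genes. An exact decamer lay in at least 1 window of 7 of the 25 genes (AEN, DDB2, FAS, FDXR, PLK2, RPS27L and SESN1; 28.0%), against 8.06% of the 27305 gene symbols with a window. A pair of decamers at most 13 bases apart with no more than 2 mismatches in all lay in 7 genes (AEN, CCNG1, DDB2, FAS, FDXR, MDM2 and SESN1; 28.0%), against 9.53% of all symbols. DDB2 was the single member with a pair free of mismatches, as were 10 symbols, or 0.0366%, in all. The windows of 5 genes are shown because the results below turn on them or because they show the range from no decamer to a full pair; capitals mark the decamers. The GDF15 window (chr19:18385908-18386207, plus strand) holds no exact decamer, and its best pair has 3 mismatches. That pair starts at base 29 after the start of transcription, with 0 bases between its decamers. It is past the limit of 2 mismatches and so not in capitals, which does not show that the window lacks a p53 site. The CCNG1 window (chr5:163437321-163437620, plus strand) and the MDM2 window (chr12:68808767-68809066, plus strand) each hold a pair with 2 mismatches, with 9 and 0 bases between the decamers. The RPS27L window (chr15:63157428-63157727, minus strand) holds 1 exact decamer, and the DDB2 window (chr11:47214724-47215023, plus strand) holds 2 exact decamers 1 base apart. These are matches of letters in a short window, and many known p53 sites lie outside such windows.
GDF15: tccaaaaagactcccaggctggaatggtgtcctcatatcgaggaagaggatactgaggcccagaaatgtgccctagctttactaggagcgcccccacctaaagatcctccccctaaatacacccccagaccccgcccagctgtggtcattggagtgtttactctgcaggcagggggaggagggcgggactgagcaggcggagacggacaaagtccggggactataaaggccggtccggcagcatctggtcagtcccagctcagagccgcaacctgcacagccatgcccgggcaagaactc
CCNG1: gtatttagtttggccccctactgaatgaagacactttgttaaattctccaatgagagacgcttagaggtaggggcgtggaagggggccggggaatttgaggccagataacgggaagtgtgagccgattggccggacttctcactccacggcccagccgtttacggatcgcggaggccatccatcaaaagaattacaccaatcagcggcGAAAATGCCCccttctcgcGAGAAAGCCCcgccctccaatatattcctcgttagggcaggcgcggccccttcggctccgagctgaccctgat
RPS27L: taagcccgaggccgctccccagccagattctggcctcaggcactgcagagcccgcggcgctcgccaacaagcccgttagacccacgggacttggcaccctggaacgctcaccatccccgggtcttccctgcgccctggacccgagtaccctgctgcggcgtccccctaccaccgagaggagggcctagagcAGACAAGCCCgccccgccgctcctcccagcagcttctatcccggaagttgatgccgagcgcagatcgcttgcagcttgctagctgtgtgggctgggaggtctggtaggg
MDM2: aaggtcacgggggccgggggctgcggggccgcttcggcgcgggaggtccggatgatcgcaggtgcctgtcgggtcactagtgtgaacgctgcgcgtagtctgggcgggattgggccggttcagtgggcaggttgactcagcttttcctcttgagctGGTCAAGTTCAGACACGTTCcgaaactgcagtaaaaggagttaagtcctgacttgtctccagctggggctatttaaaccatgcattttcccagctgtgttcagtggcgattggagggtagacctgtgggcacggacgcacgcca
DDB2: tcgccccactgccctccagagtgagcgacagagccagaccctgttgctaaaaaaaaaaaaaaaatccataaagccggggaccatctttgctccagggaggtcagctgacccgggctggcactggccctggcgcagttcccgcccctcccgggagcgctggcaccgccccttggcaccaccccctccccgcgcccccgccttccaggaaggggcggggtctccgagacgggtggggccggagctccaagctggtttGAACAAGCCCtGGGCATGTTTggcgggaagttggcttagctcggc

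By level, the 32 genes spanned a wide range. In LNCaP 31 of them stood at 1 scaled FPKM or more and 15 at 10 or more, whereas in LAPC4 27 stood at 1 or more and only 5 at 10 or more. The median level of the 29 tested genes was 10.3 in LNCaP against 7.99 in LNCaP-abl, 5.35 in VCaP against 4.07 in VCaP-CR, and 4.21 in LAPC4 against 6.41 in LAPC4-CR. The spread between the highest and the lowest library was smallest for the DNA polymerase POLK, at 1.87-fold, and largest for PHLDA3 (50.6-fold), FAS (51.1-fold) and GDF15 (139-fold).

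**Figure D1:**
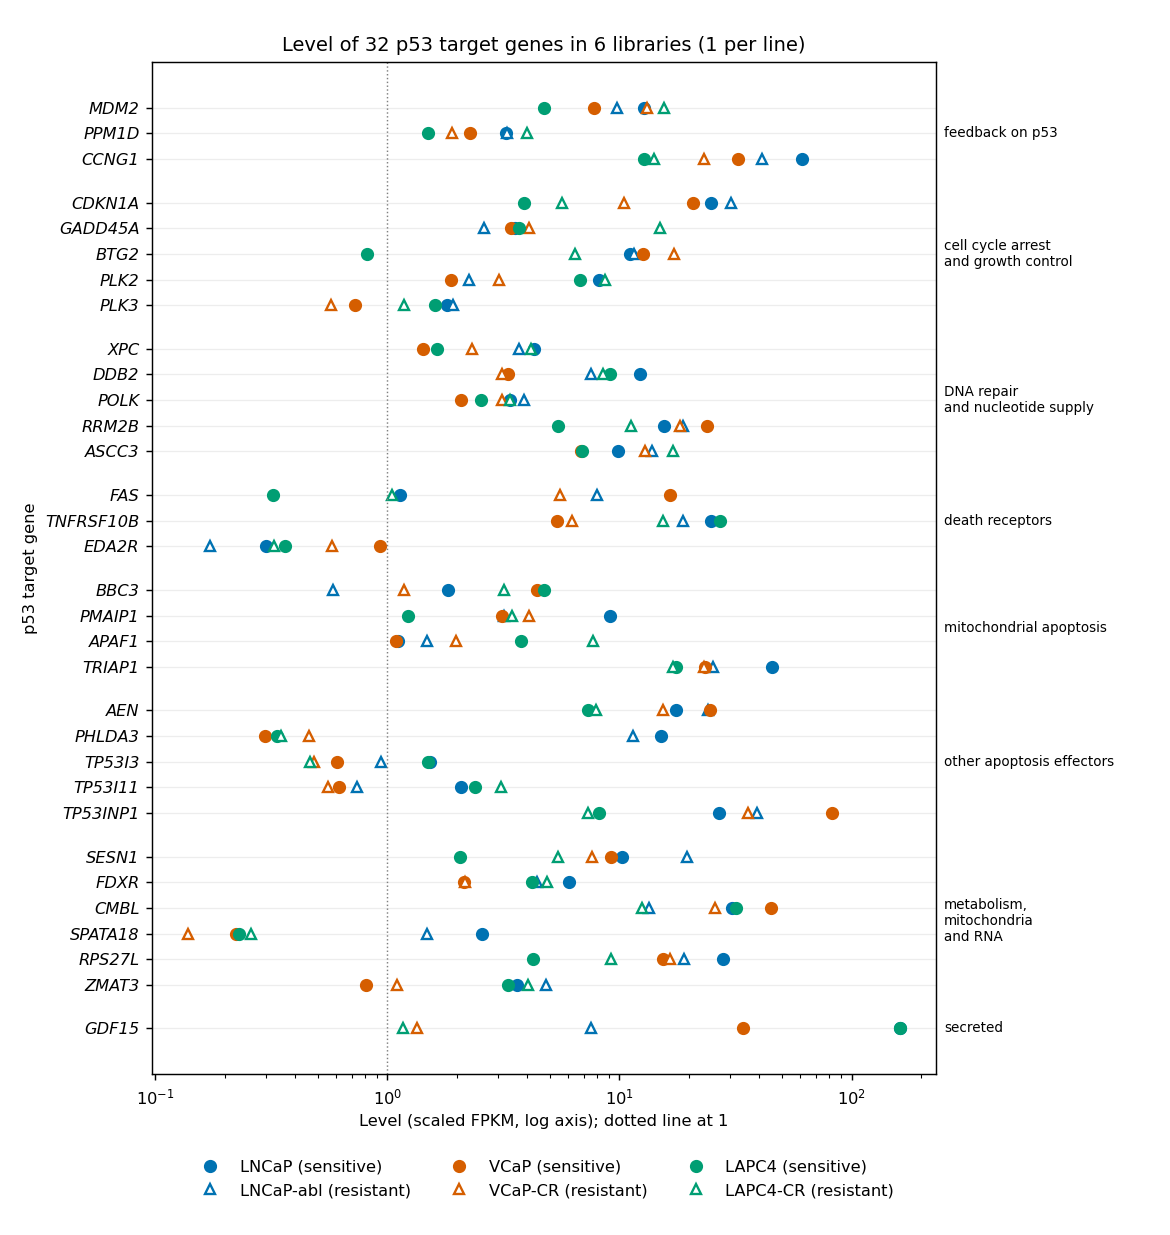
Level of each of the 32 p53 target genes (rows, grouped by role) in the 6 libraries, in scaled FPKM on a log axis; circles are sensitive and triangles resistant lines, colored by lineage, and the dotted line marks 1. GDF15 has its sensitive and resistant libraries far apart, and PHLDA3 has its LNCaP-lineage libraries at 15.0 and 11.4 and the other 4 below 1.

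GDF15 (ENSG00000130513; chr19:18357968-18360986 in hg18) encodes growth differentiation factor 15, a stress cytokine of the TGF-beta superfamily. Its counts were 1813 in LNCaP (95% Poisson interval 1730.5 to 1898.4, which covers counting error only) and 104 in LNCaP-abl (85.0 to 126.0). In the VCaP pair they were 407 (368.4 to 448.5) and 26 (17.0 to 38.1), and in the LAPC4 pair 2586 (2487.3 to 2687.6) and 34 (23.5 to 47.5). The sensitive library was higher in all 3 pairs, as for 17.0% of the tested genes. The 3 sensitive libraries all lay above the resistant ones, as for 4.08% of the tested genes. In such bulk libraries, fewer cells with an RNA and less of it per cell cannot be told apart. As scaled FPKM the levels were 161, 34.0 and 162 in LNCaP, VCaP and LAPC4, and 7.53, 1.34 and 1.17 in their resistant counterparts, so that the sensitive level was 21.4, 25.4 and 139 times the resistant one. Among the 32 targets GDF15 ranked first by level in LNCaP and in LAPC4 and 3rd in VCaP, but 17th in LNCaP-abl, 24th in VCaP-CR and 27th in LAPC4-CR.

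Change is given from here on as the resistant minus the sensitive library of a pair on the log2(scaled FPKM + 1) scale, on which the change of a weakly expressed gene comes out too small. For GDF15 it was -4.25 for the LNCaP lines, -3.90 for the VCaP lines and -6.23 for the LAPC4 lines, a mean of -4.80 ± 1.26 (SD, n = 3 pairs). Without the pseudocount the log2 ratios were -4.42, -4.67 and -7.12, with counting intervals of -4.72 to -4.13, -5.30 to -4.09 and -7.65 to -6.63. The interval of the LAPC4 pair did not overlap with the other two. GDF15 was the only target at least 2-fold lower in all 3 pairs, which 0.184% of the tested genes were, and 0 targets were 2-fold higher in all 3 (0.0631% of tested genes).

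**Figure D2:**
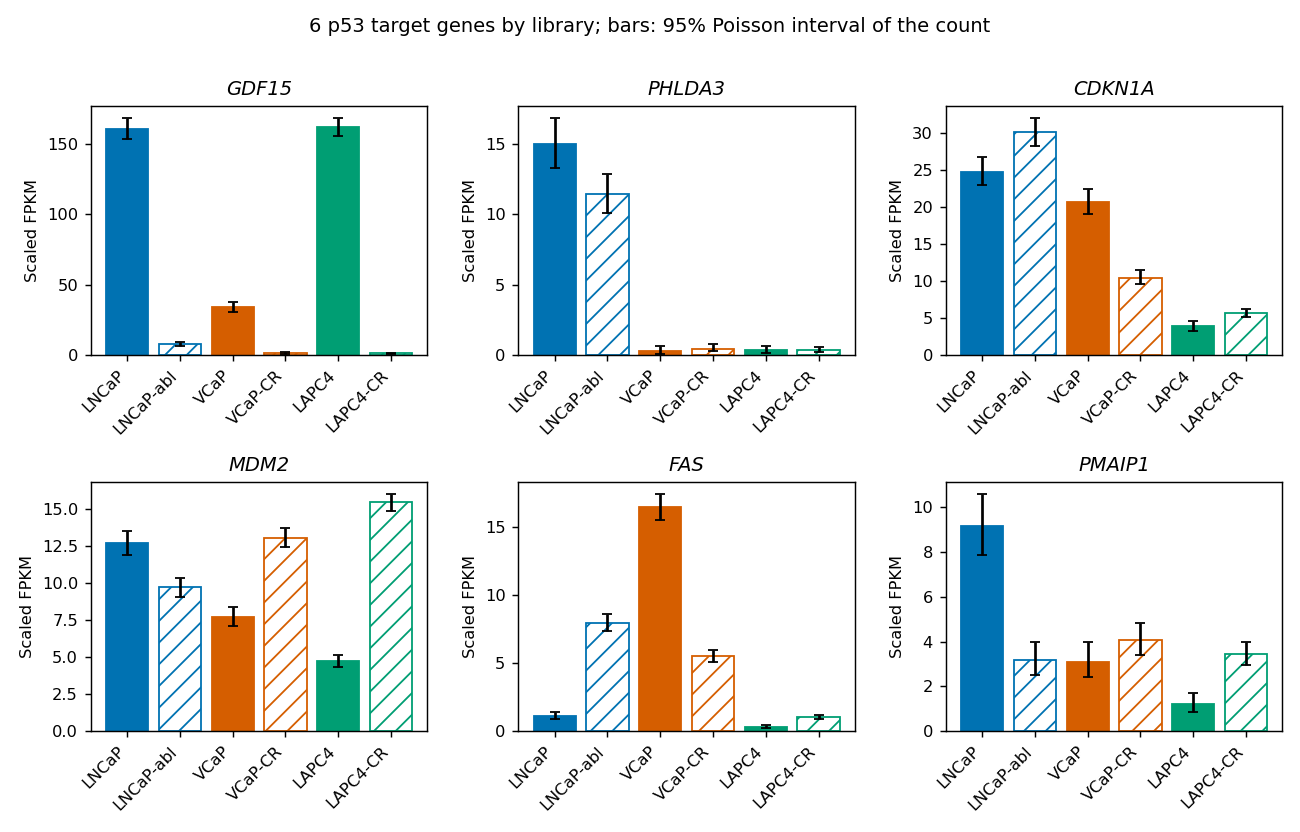
Level of 6 p53 target genes in each library, in scaled FPKM on linear axes from 0; bars are colored by lineage and the thin lines are 95% Poisson intervals of the counts, with 1 library a bar. GDF15 is low in the 3 resistant lines, PHLDA3 is seen in the LNCaP lineage, and CDKN1A, MDM2, FAS and PMAIP1 move in different directions in different pairs.

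Across the 3 pairs, edgeR's quasi-likelihood test with the line as a block and Benjamini-Hochberg adjustment called 0 of the 29 genes higher and 0 lower in the resistant lines at 5%, as it did for 0.0% of the 17422 genes in each direction. At an unadjusted p under 0.05 it had 2 targets higher, ASCC3 and APAF1 (6.9% of the 29, against 4.96% of all genes), and 3 lower, GDF15, CMBL and BBC3 (10.3% against 3.98%). GDF15 had a log2 fold change of -5.34 (SE 0.62, adjusted p = 0.230), the smallest adjusted p of any target. DESeq2, run as an alternative on the same counts, gave GDF15 an adjusted p of 4.42e-19 and also called CMBL (adjusted p = 0.043), with 93 of all tested genes higher and 64 lower, whereas limma called 0. edgeR called GDF15 as well when no filter on low genes was used (adjusted p = 2.13e-06) or when the LAPC4 pair was left out (adjusted p = 1.01e-06). Libraries of a line have no replicate. These p-values therefore rest on how the change from sensitive to resistant varied between the 3 pairs, with variance estimates shared across genes.

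The 3 genes that act back on p53 were higher in LAPC4-CR than in LAPC4, with a median change of 1.00, and were not higher together in the other pairs (medians of -0.35 and -0.18). MDM2 (ENSG00000135679; chr12:67488223-67525481 in hg18), the ubiquitin ligase that degrades p53, stood at 12.7 scaled FPKM in LNCaP against 9.74 in LNCaP-abl, at 7.75 in VCaP against 13.1 in VCaP-CR, and at 4.74 in LAPC4 against 15.5 in LAPC4-CR. LAPC4 was its lowest and LAPC4-CR its highest library, and the states overlapped. The changes were -0.35, 0.69 and 1.52, and edgeR gave 0.70 (SE 0.42, adjusted p = 0.637). PPM1D, the phosphatase that removes activating phosphates from p53, was at 3.26 in LNCaP against 3.27 in LNCaP-abl, at 2.27 in VCaP against 1.89 in VCaP-CR, and at 1.5 in LAPC4 against 4.0 in LAPC4-CR. Its LAPC4 pair differed by 1.00 and the other pairs by no more than 0.18 in size. CCNG1, which encodes cyclin G1, a partner of MDM2, was at 61.5 in LNCaP against 41.0 in LNCaP-abl, at 32.4 in VCaP against 23.0 in VCaP-CR, and at 12.8 in LAPC4 against 14.1 in LAPC4-CR. Its order followed the lineages, and no LNCaP-lineage library overlapped with the others.

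Of the 5 genes of cell cycle arrest and growth control, none had a change of the same direction beyond the spread of the 3 pairs. CDKN1A (ENSG00000124762; chr6:36752283-36763094 in hg18), the inhibitor of cyclin-dependent kinases, stood at 24.8 in LNCaP against 30.1 in LNCaP-abl, at 20.7 in VCaP against 10.5 in VCaP-CR, and at 3.89 in LAPC4 against 5.64 in LAPC4-CR. The LNCaP-lineage libraries held the 2 highest and the LAPC4-lineage libraries the 2 lowest of these levels. The change was 0.27, -0.92 and 0.44 in these pairs, and edgeR gave -0.05 (SE 0.35, adjusted p = 0.977), a value whose sign turned with the filter and without the VCaP pair (0.41). BTG2, an antiproliferative adaptor of mRNA deadenylation, was at 11.1 in LNCaP against 11.6 in LNCaP-abl, at 12.7 in VCaP against 17.1 in VCaP-CR, and at 0.820 in LAPC4 against 6.41 in LAPC4-CR. Its low value in LAPC4 rested on 30 counts, and LAPC4-CR was 7.82 times higher (log2 ratio 2.97, counting interval 2.43 to 3.55).

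GADD45A, a damage-induced growth arrest protein, was between 2.60 and 4.07 in the 5 libraries other than LAPC4-CR, where it stood at 15.0, 4.08 times its level in LAPC4. PLK2, a polo-like kinase, went the other way and in another pair. It was at 8.18 in LNCaP and 2.24 in LNCaP-abl, 3.65 times lower, against 1.87 and 3.02 for VCaP and VCaP-CR and 6.76 and 8.69 for LAPC4 and LAPC4-CR. PLK3, a related kinase, had low levels, at 1.81 in LNCaP against 1.92 in LNCaP-abl, at 0.721 in VCaP against 0.569 in VCaP-CR, and at 1.60 in LAPC4 against 1.18 in LAPC4-CR, with changes from -0.26 to 0.06. The 20 cell cycle genes that p21 is known to repress through the DREAM complex were listed beside CDKN1A. None was called by edgeR, also at an unadjusted p under 0.05, where 4.96% of all tested genes were higher and 3.98% lower. From LNCaP to LNCaP-abl 14 of the 20 fell (median -0.24), beside 8781 of the 17422 tested genes. From VCaP to VCaP-CR 18 of the 20 fell (median -0.27), beside 8938 of 17422. From LAPC4 to LAPC4-CR 16 of the 20 rose (median 0.21), beside 8734 of 17422. CDKN1A was itself higher, lower and higher in those pairs, and a link between it and these genes was not tested.

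The 5 genes of DNA repair and nucleotide supply had a median change of 0.17 for LNCaP, 0.42 for VCaP and 0.92 for LAPC4. ASCC3, a helicase of alkylation repair and of the rescue of stalled ribosomes, stood at 9.81 in LNCaP, 6.81 in VCaP and 6.86 in LAPC4, and at 13.9, 12.9 and 16.9 in their resistant counterparts. It was the one target whose 3 resistant libraries all lay above the 3 sensitive ones, which 3.9% of the tested genes did. The changes of 0.46, 0.83 and 1.19 gave a mean of 0.83 ± 0.36 (SD, n = 3 pairs), and edgeR gave 0.91 (SE 0.27, adjusted p = 0.527). POLK, a polymerase that copies past damaged bases, was also higher in each resistant line, by 0.17, 0.42 and 0.31. XPC and DDB2, which recognise damage in nucleotide excision repair, did not move alike. XPC had changes of -0.17, 0.46 and 0.97, and DDB2, the gene with the full decamer pair, of -0.63, -0.07 and -0.08. DDB2 was at 12.2 and 7.53 in the LNCaP lineage and 9.06 and 8.5 in the LAPC4 lineage, but at 3.32 and 3.12 in the VCaP lineage. RRM2B, the p53-induced subunit of ribonucleotide reductase, was at 5.45 in LAPC4 and between 11.2 and 23.8 in the other 5 libraries.

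Among the death receptors, FAS had opposite changes in 2 pairs. It stood at 1.13 scaled FPKM in LNCaP (77 counts) and 7.99 in LNCaP-abl (666 counts), but at 16.5 in VCaP against 5.52 in VCaP-CR, and at 0.323 in LAPC4 (31 counts) against 1.05 in LAPC4-CR. The log2 ratio without a pseudocount was 2.82 in the LNCaP pair (counting interval 2.48 to 3.18) and -1.58 in the VCaP pair (-1.72 to -1.44). TNFRSF10B, the TRAIL receptor DR5, was high in the LNCaP lineage (24.8 and 18.7) and the LAPC4 lineage (27.1 and 15.4) and low in the VCaP lineage (5.35 and 6.26). EDA2R, a receptor of ectodysplasin, had 7 to 33 counts a library and no level above 0.931.

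The 4 genes of the mitochondrial pathway of apoptosis split. BBC3, the BH3-only protein PUMA, was at 1.83 in LNCaP against 0.581 in LNCaP-abl, at 4.41 in VCaP against 1.18 in VCaP-CR, and at 4.71 in LAPC4 against 3.19 in LAPC4-CR. It was lower in each resistant line, by a mean change of -0.87 ± 0.43 (SD, n = 3 pairs), on counts between 14 and 162, and the states overlapped. edgeR gave -1.33 (SE 0.40, adjusted p = 0.527). APAF1, the core of the apoptosome, went the other way. It was at 1.11 and 1.49, 1.09 and 1.97, and 3.75 and 7.65 in the sensitive and resistant line of the LNCaP, VCaP and LAPC4 lineages, and edgeR gave 0.78 (SE 0.29, adjusted p = 0.536). PMAIP1, the BH3-only protein NOXA, stood at 9.14 in LNCaP against 3.19 in LNCaP-abl, at 3.11 in VCaP against 4.07 in VCaP-CR, and at 1.22 in LAPC4 against 3.44 in LAPC4-CR. The sensitive lines spanned more than the resistant ones, and the changes of -1.28, 0.30 and 1.00 averaged 0.01 ± 1.17 (SD, n = 3 pairs). TRIAP1, an inhibitor of apoptosis in the space between the mitochondrial membranes, was at 45.5 and 25.4 in the LNCaP lineage and between 16.9 and 23.5 in the other 4 libraries.

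PHLDA3 (ENSG00000174307; chr1:199701243-199704988 in hg18), a PH-domain protein that keeps AKT from the membrane, had the widest gap between the LNCaP lineage and the other lineages among the targets. It had 286 counts in LNCaP (95% Poisson interval 253.8 to 321.1) and 267 in LNCaP-abl (235.9 to 301.0). In VCaP and VCaP-CR it had 6 (2.2 to 13.1) and 15 (8.4 to 24.7), and in LAPC4 and LAPC4-CR 9 (4.1 to 17.1) and 17 (9.9 to 27.2). The LNCaP-lineage libraries stood at 15.0 and 11.4 scaled FPKM and the other 4 between 0.297 and 0.458, so the lower of the former was 25.0 times the highest of the latter. PHLDA3 passed the filter only through those 2 libraries, so its place among the genes separated by lineage is no support for a count of them. SPATA18, a protein of mitochondrial quality control that did not pass the filter, was also highest in the LNCaP lineage, at a lower level. Its counts were 119 in LNCaP against 84 in LNCaP-abl, 11 in each VCaP-lineage library, and 15 in LAPC4 against 31 in LAPC4-CR, and the lower LNCaP-lineage level was 5.70 times the highest of the rest.

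The other effectors of apoptosis had no common direction. TP53INP1, a stress protein that promotes p53 phosphorylation and autophagy, was at 26.9 in LNCaP against 39.0 in LNCaP-abl, at 82.1 in VCaP against 35.6 in VCaP-CR, and at 8.16 in LAPC4 against 7.34 in LAPC4-CR. VCaP stood above every other library and was 2.30 times VCaP-CR. AEN, an apoptosis-enhancing nuclease, had changes of 0.43, -0.63 and 0.10 and was lowest in the LAPC4 lineage, at 7.32 and 7.91. TP53I11 was at most 3.09, and TP53I3, a quinone reductase-like enzyme, at most 1.52, on 14 to 46 counts.

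CMBL, a cytosolic hydrolase, was with GDF15 one of the targets whose 3 resistant libraries all lay below the 3 sensitive ones (4.08% of the tested genes did). It stood at 30.5 in LNCaP, 44.8 in VCaP and 31.9 in LAPC4, and at 13.4, 25.8 and 12.6 in the resistant counterparts. The changes were -1.13, -0.77 and -1.28, a mean of -1.06 ± 0.26 (SD, n = 3 pairs), and edgeR gave -1.11 (SE 0.25, adjusted p = 0.527). SESN1, the stress-induced inhibitor of mTORC1 signalling sestrin 1, was at 10.3 in LNCaP against 19.5 in LNCaP-abl, at 9.19 in VCaP against 7.58 in VCaP-CR, and at 2.06 in LAPC4 against 5.43 in LAPC4-CR. It was higher in LNCaP-abl and LAPC4-CR than in their parents, and lower in VCaP-CR. RPS27L, a ribosomal protein paralog, was at 27.9 in LNCaP against 19.0 in LNCaP-abl, at 15.4 in VCaP against 16.5 in VCaP-CR, and at 4.22 in LAPC4 against 9.22 in LAPC4-CR. FDXR, the reductase that passes electrons to mitochondrial ferredoxin, had no change above 0.37 in size. ZMAT3, an RNA-binding regulator of splicing, had the smallest spread of changes (0.33, 0.22 and 0.23), and was at 0.812 and 1.10 in the VCaP lineage against 3.30 to 4.82 elsewhere.

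The 3 pairs, read one by one, had different targets past 2-fold. In the LNCaP pair 1 of the 29 tested targets was at least 2-fold higher (FAS, against 6.71% of all tested genes) and 4 were at least 2-fold lower (PLK2, PMAIP1, CMBL and GDF15, or 13.8%, against 7.86%). Of protein-coding genes alone, 8.15% were higher and 3.69% lower by that much. In the VCaP pair 0 were higher (2.58% of all genes) and 4 were lower (FAS, BBC3, TP53INP1 and GDF15, or 13.8%, against 2.38%), with 2.18% and 1.9% of the protein-coding genes. In the LAPC4 pair 7 were higher (MDM2, PPM1D, GADD45A, BTG2, ASCC3, PMAIP1 and SESN1, or 24.1%, against 5.77%) and 2 were lower (CMBL and GDF15, or 6.9%, against 6.84%), with 7.13% and 4.14% of the protein-coding genes. PPM1D and PMAIP1 lay just past the 2-fold line, and XPC and RPS27L, each at 0.97, just short of it. The count of 7 depends on the pseudocount, being 11 with 0.25 added before the logarithm (8.91% of all tested genes) and 2 with 5 (1.72%). The count of 4 in the LNCaP pair becomes 6 with 0.25 (11.4%) and 1 with 5 (2.82%).

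The median change of the 29 targets was -0.34 in the LNCaP pair, with 13 higher and 16 lower, while the median of all tested genes was -0.01 and that of protein-coding genes 0.12. In the VCaP pair it was -0.02, with 14 higher and 15 lower. In the LAPC4 pair it was 0.31, with 21 higher and 8 lower, beside 0.00 for all tested genes and 0.08 for protein-coding genes. A total of 5 targets were higher in all 3 pairs (BTG2, POLK, ASCC3, APAF1 and ZMAT3; 17.2%) and 5 were lower in all 3 (DDB2, BBC3, TRIAP1, CMBL and GDF15; 17.2%), which is near the 16.4% and 17.0% of all tested genes. The plot of changes by pair shows this spread, with GDF15 alone on the far left.

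**Figure D3:**
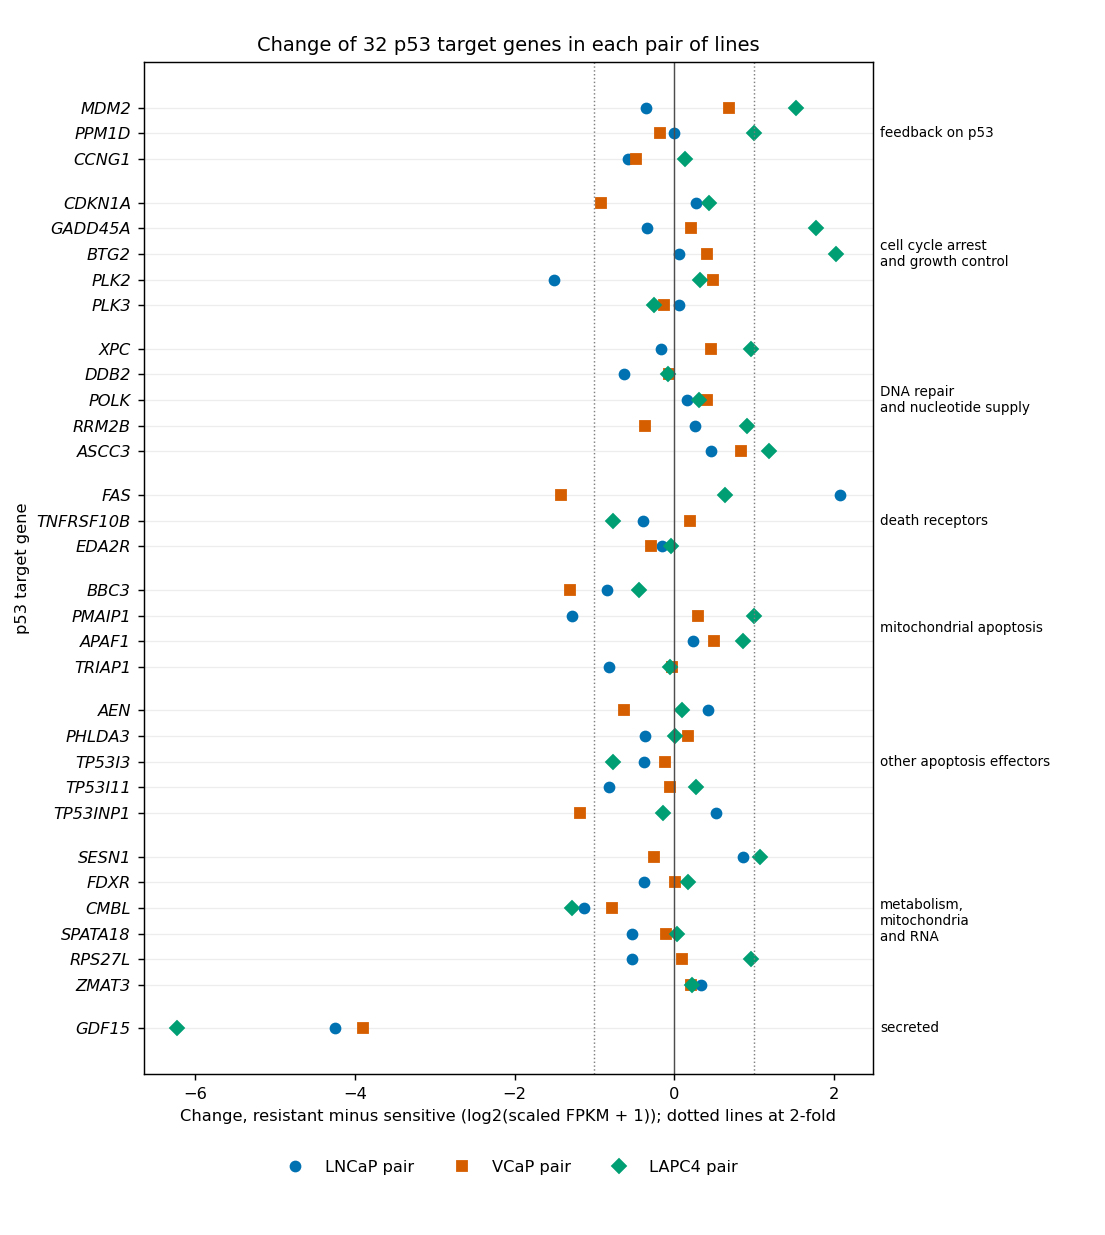
Change of each of the 32 targets (rows, grouped by role) in the LNCaP, VCaP and LAPC4 pairs, as resistant minus sensitive on the log2(scaled FPKM + 1) scale; dotted lines mark 2-fold. Most symbols lie between the dotted lines, GDF15 lies at -3.90 or below in all 3 pairs, and FAS and PMAIP1 lie beyond the lines on opposite sides in different pairs.

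The lineages were compared next, since LNCaP is the line with wild-type p53. Both LNCaP-lineage libraries stood above all 4 others for 7 of the 29 targets (CCNG1, CDKN1A, PLK3, TRIAP1, PHLDA3, SESN1 and RPS27L; 24.1%), against 11.5% of all tested genes and 13.0% of the protein-coding ones. They stood below all others for 0 targets, against 9.03% of tested and 8.99% of protein-coding genes. Apart from PHLDA3, the margins of the 7 were small. The lower LNCaP-lineage level was 1.27 times the highest other level for CCNG1, 1.20 times for CDKN1A, 1.15 times for RPS27L, 1.13 times for PLK3, 1.12 times for SESN1 and 1.08 times for TRIAP1. For PLK3, SESN1 and TRIAP1 the Poisson intervals of those levels overlapped, so their separation lies within counting error. PHLDA3 alone was separated by at least 1 on the log2 scale, as were 0.804% of tested genes, with a gap of 3.09, and 0 targets lay that far below (0.43% of tested genes). PHLDA3 passed the filter only through the LNCaP-lineage libraries, so it is no support for the count of 7 or for the count at that gap. The count of 7 became 11 without the LNCaP-abl library (20.8% of all tested genes were then separated) and 12 without the LAPC4-CR library (16.1% of all tested genes). Without the LNCaP library it was 9, beside 24.5% of all tested genes, with 2 targets then below (23.9%). It was 8 without VCaP (13.7%), 7 without VCaP-CR (13.0%) and 8 without LAPC4 (15.6%).

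The LAPC4 lineage stood below all 4 others for 10 targets (34.5%, against 11.7% of tested genes) and above them for 2, APAF1 and TP53I11 (12.3% of tested genes). TP53I11 averaged 0.993 scaled FPKM in the other 4 libraries. It passed the filter only through the LAPC4 lineage, so it is no support for that count. CCNG1, CDKN1A, TRIAP1, SESN1 and RPS27L were at the same time highest in the LNCaP lineage and lowest in the LAPC4 lineage, with the VCaP lineage between. The other 5 on the low side of the LAPC4 lineage were BTG2, RRM2B, FAS, AEN and TP53INP1. FAS averaged 0.686 scaled FPKM in the LAPC4 lineage and passed the filter only through the other libraries. It is therefore no support for the count of 10. Its levels of 1.05 in LAPC4-CR and 1.13 in LNCaP also had overlapping Poisson intervals. The VCaP lineage stood below all others for 6 targets (PLK3, DDB2, TNFRSF10B, TP53I11, FDXR and ZMAT3; 20.7%, near the 18.7% of tested genes) and above them for BTG2 alone (17.1% of tested genes). PLK3, TP53I11 and ZMAT3 averaged 0.645, 0.584 and 0.958 scaled FPKM in the VCaP lineage. They passed the filter only through the other libraries, so they are no support for the count of 6. Among protein-coding genes the shares above and below were 14.4% and 22.5% for the VCaP lineage and 15.1% and 13.1% for the LAPC4 lineage. By a gap of 1, TNFRSF10B and ZMAT3 were separated downward by the VCaP lineage (1.15% of tested genes; upward 0 targets and 2.36%) and TP53INP1 by the LAPC4 lineage (0.649%; upward 0 targets and 1.39%). ZMAT3, which passed the filter only through the other lineages, is no support for the count at that gap. Since each lineage is 1 line and its derivative, no test of p53 status was made.

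**Figure D4:**
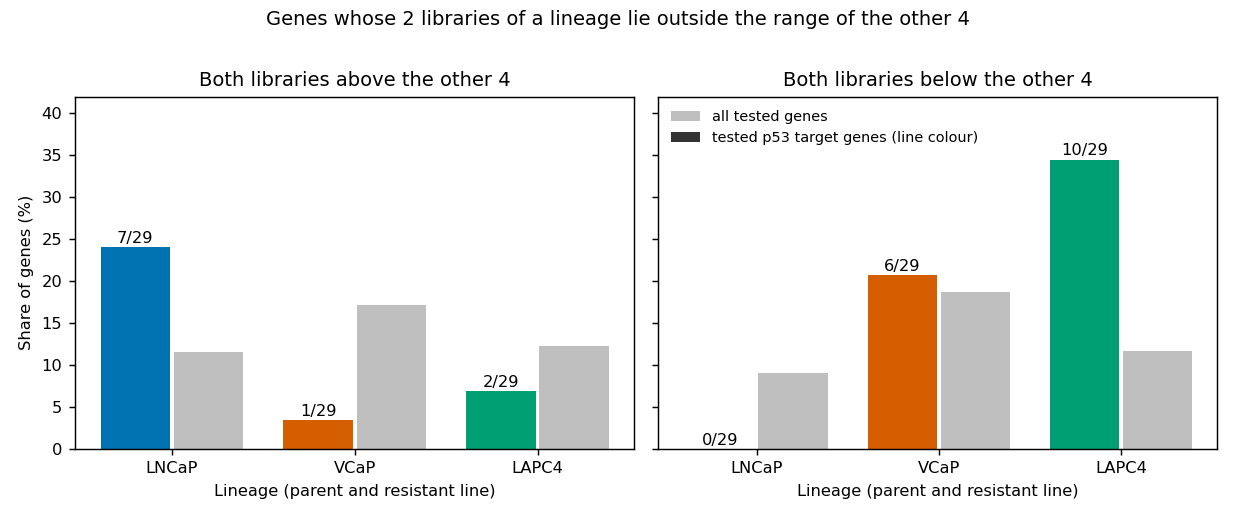
Share of genes, in percent, whose 2 libraries of a lineage lie above (left) or below (right) the other 4 libraries, for all tested genes (grey) and for the 29 tested targets (line color). The share of targets exceeds that of all genes most for the LNCaP lineage on the left (24.1% against 11.5%) and the LAPC4 lineage on the right (34.5% against 11.7%). On the left, the LNCaP share includes PHLDA3 and the LAPC4 share TP53I11, each of which passed the filter only through that lineage. On the right, the LAPC4 share includes FAS and the VCaP share PLK3, TP53I11 and ZMAT3. Each of these passed the filter only through the other lineages.

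Within the 3 sensitive libraries alone, LNCaP held the highest level of 17 of the 29 targets (58.6%, against 31.2% of all tested genes) and the lowest of 2, BBC3 and CMBL (29.7% of tested genes). VCaP held the highest of 6 (35.2% of tested genes) and the lowest of 14 (35.9%), and LAPC4 the highest of 6 (33.7%) and the lowest of 13 (34.3%). Within the resistant libraries LNCaP-abl held the highest level of 15 targets (33.2% of tested genes) and the lowest of 6 (33.9%). VCaP-CR held the highest of 3 (35.4%) and the lowest of 10 (36.6%), and LAPC4-CR the highest of 11 (31.4%) and the lowest of 13 (29.6%). GADD45A, MDM2, PPM1D and ASCC3 were among the targets that stood highest in LAPC4-CR. PHLDA3 is among the 17 highest in LNCaP and the 15 highest in LNCaP-abl, and passed the filter only through that lineage. TP53I11 is likewise among the 6 highest in LAPC4 and the 11 highest in LAPC4-CR. Neither gene is support for those counts. Genes under 1 scaled FPKM where they are lowest, such as ZMAT3 in VCaP and FAS in LAPC4, passed the filter through other libraries. They are no support for a count of lowest levels.

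MDM4, the p53-binding relative of MDM2, was at 5.89 scaled FPKM in LNCaP against 8.13 in LNCaP-abl, at 4.40 in VCaP against 4.99 in VCaP-CR, and at 3.34 in LAPC4 against 3.93 in LAPC4-CR. Its levels had the lineage order seen for CCNG1. It belongs to a list of 22 genes of p53 regulation, of which 20 were tested, and edgeR called 0 after adjustment. At an unadjusted p under 0.05, 3 were higher (CREBBP and EP300, both acetyltransferases, and TP53BP1, a repair scaffold) and 0 were lower, beside 4.96% and 3.98% of all tested genes. USP7, the deubiquitinase of MDM2 and p53, had the largest change of the list. It stood at 9.38 in LNCaP against 6.25 in LNCaP-abl, at 3.25 in VCaP against 7.42 in VCaP-CR, and at 5.29 in LAPC4 against 20.0 in LAPC4-CR. The changes of EP300 and CREBBP were likewise largest in the LAPC4 pair, at 1.57 and 1.22. The list's median changes were 0.06, 0.15 and 0.19.

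A second list held 50 other p53 targets, of which 38 were tested, with 0 called after adjustment. At an unadjusted p under 0.05, 3 of them were higher (IGFBP3, PANK1 and TM7SF3) and 1 was lower (BAX), beside the same 4.96% and 3.98%, and the median changes were 0.07, -0.04 and 0.23. IGFBP3, which binds insulin-like growth factors, was at 2.36 in LNCaP against 253 in LNCaP-abl, at 52.0 in VCaP against 47.4 in VCaP-CR, and at 3.05 in LAPC4 against 46.3 in LAPC4-CR. The LNCaP and LAPC4 pairs, with a low level in the parent, had changes of 6.24 and 3.54, and edgeR gave 3.66 (SE 1.41, adjusted p = 0.545). BAX, the pore-forming executioner that BBC3 and PMAIP1 act on, was at 8.28 and 2.65, 6.33 and 3.61, and 4.46 and 3.11 in the 3 pairs. Like BBC3 it was lower in each resistant line, with changes of -1.34, -0.67 and -0.41 (edgeR adjusted p = 0.529). BTG1, a relative of BTG2, was 28.0 and 3.38 in the LNCaP pair and had changes of -2.73, 0.97 and -0.73, and the matrix protein gene THBS1 was highest in LAPC4-CR, at 18.4. PLTP, a phospholipid transfer protein, did not pass the filter and was at 2.59 in VCaP and 0.258 in VCaP-CR.

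A list of 18 genes of the ATF4 and CHOP stress response, which is also known to drive GDF15, was read beside it. In the LAPC4 pair, where GDF15 differed most, 15 of the 18 were lower (median -0.91) and 8 were at least 2-fold lower, beside 8672 of the 17422 tested genes lower and 6.84% at least 2-fold lower. NUPR1 (-1.93), CHAC1 (-1.85), DDIT3, which encodes CHOP (-1.77), SLC7A11 (-1.46) and CEBPB (-1.34) had the largest changes there. In the LNCaP and VCaP pairs the medians were 0.31 and 0.16, with 11 of 18 higher in each, beside 8613 and 8449 of the 17422 tested genes. DDIT3 was higher in those pairs, by 0.79 and 0.97, while GDF15 was lower. edgeR called 0 of the 18 after adjustment. At an unadjusted p under 0.05 ATF3 and TRIB3 were lower (3.98% of all tested genes) and 0 were higher (4.96%). KLK3, which androgens drive, was lower in the same direction as GDF15. It stood at 602, 322 and 105 scaled FPKM in LNCaP, VCaP and LAPC4 and at 0.667, 19.0 and 2.07 in their resistant counterparts, with changes of -8.50, -4.01 and -5.11 (edgeR -6.19, SE 1.14, adjusted p = 0.527). The part of the stress response or of androgen response in the GDF15 difference was not tested, and that of medium and serum cannot be told apart from castration state.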

How the data were processed

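RNA was measured in 6 libraries, 1 per line, made from RNeasy-purified total RNA with the SOLiD Total RNA-Seq kit, per the labels' protocols. Each deposited table lists 51698 entries with whole-number counts per gene and FPKM, per the file headers; FPKM was rebuilt from count, length and total within 0.488%. HTSeq and hg18 are named in the submitters' processing notes without role or version; aligner, annotation and use of strand: not given in the sources used here. Reads of 8 targets that overlap a tested gene (XPC, POLK, ASCC3, TNFRSF10B, APAF1, TP53I3, TP53INP1 and SESN1), of MDM4, which also does, and of RPS27L, a near copy of RPS27, are therefore uncertain.

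Entries sharing a symbol were summed (47032 symbols, 345 of them sums), and 1375 symbols of small or mitochondrial RNAs were left out. FPKM was divided by the median ratio over 12513 genes (factors 0.863 to 1.08). The 17422 genes with a mean of at least 1 were tested on the counts with edgeR 4.0.16 (TMM, line as block, R 4.3.3; Benjamini-Hochberg, 5%); DESeq2 1.42.0 and limma 3.58.1 were alternatives. The script was run on simulated counts for these 17422 genes, with equal changes put into every pair of well-counted genes at a fixed dispersion. It recovered most of the larger changes put in. Real changes and dispersions vary between pairs and genes, so this run checks the code and does not measure the power of the test here. Pairs come from the line names: deviations from group means correlated at 0.45, 0.70 and 0.57 within the LNCaP, VCaP and LAPC4 lines. Within a pair there is no replicate and no test; intervals are exact 95% Poisson intervals and their conditional ratios.

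The targets, the other lists and the rules were chosen with earlier results of these data known. Named with edgeR values were GDF15, CDKN1A, MDM2 and targets with an unadjusted p under 0.05; with all levels, also those changed 2-fold in a pair or separated by the LNCaP lineage; of each other list at most 5 genes, MDM4 first, then by largest change; some genes the rule names are not reported here. Genes given beyond that rule (DDB2, RRM2B, TNFRSF10B, SPATA18, ZMAT3 and others as ranges, TP53BP1, PANK1, TM7SF3, ATF3 and TRIB3) were chosen after their values were seen.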

Additional observations from a re-analysis of the deposited data

Results flagged for a closer look

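Opposite changes in different pairs drew attention to 2 targets. For FAS the change from LNCaP to LNCaP-abl less the change from VCaP to VCaP-CR was 3.50 on the log2(scaled FPKM + 1) scale, the resistant library being higher in the former and lower in the latter. For PMAIP1 the change from LNCaP to LNCaP-abl less the change from LAPC4 to LAPC4-CR was -2.28, the resistant library being lower in the former and higher in the latter. With 1 library per line these differences were not tested.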

How the results depend on the processing

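The count of targets lower at an adjusted p under 5%, 0 in edgeR, was 1 with no filter (50 of all 43812 genes). It was 2 with DESeq2 (64 of 17422) and 0 to 1 when each pair was left out (1 to 36 of 17422). The count higher at an unadjusted p under 0.05, 2 in edgeR (864 of 17422), was 5 with no filter (1818 of 43812). It was 1 with upper-quartile factors (563 of 17422), 1 with limma (734) and 0 to 6 when each pair was left out (632 to 942). With no replicate block, that is without the pairing by line, it was 1 (295 of 17422), and 0 targets and 0 of all genes passed after adjustment. CDKN1A turned to 0.043 with no filter and 0.0083 with edgeR's own expression filter, and ran from -0.34 to 0.41 when each pair was left out. In the LAPC4 pair 11 targets were 2-fold higher with a pseudocount of 0.25 (8.91% of all tested genes) and 2 with 5 (1.72%), and in the LNCaP pair 6 were 2-fold lower with 0.25 (11.4%) and 1 with 5 (2.82%). With a filter at 5 scaled FPKM, 0 targets were separated upward by the LNCaP lineage with a gap of 1 (0.684% of all genes entered). With no filter 1 (EDA2R) was separated downward (5.93% of all genes entered). Leaving out each library in turn, an alternative added after seeing the data, gave 7 to 12 separated upward (13.0% to 24.5% of all tested genes), 0 to 2 downward (10.9% to 23.9%), and 1 to 2 upward with a gap of 1 (0.953% to 3.19%). The 18 recomputed median changes each moved by less than the SD of the 3 pair medians. Those medians were -0.34, -0.02 and 0.31, so the allowance is wide and the check could hardly fail. Of 108 recomputed single-pair changes 21 moved, all with another pseudocount, and 0 reversed. All alternatives listed were run. Within a line the 1 library per state limits every comparison. Levels under 1 scaled FPKM, as for EDA2R and for PHLDA3 outside the LNCaP lineage, rest on few counts.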

Other observations

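Some further p53 targets outside the 32, picked after their levels were seen, differed by lineage. Of the 38 tested genes of that second list, the LNCaP lineage stood above all other libraries for 6 and below them for 2. Of all tested genes, 11.5% stood above and 9.03% below. The TRAIL decoy receptor TNFRSF10D stood at 14.4 scaled FPKM in LNCaP and 11.6 in LNCaP-abl, 6.37 in LAPC4 and 3.54 in LAPC4-CR, and 0.0567 in VCaP and 0.175 in VCaP-CR. The decoy receptor TNFRSF10C had the same order, at 3.10 and 3.88, 1.40 and 1.48, and 0.448 and 0.30. The signalling receptor TNFRSF10B was likewise lowest in the VCaP lineage. NINJ1, which ruptures the membrane of dying cells, was at 7.77 and 5.58 in the LNCaP lineage and between 1.33 and 1.98 in the other 4 libraries. SFN, the cell cycle inhibitor 14-3-3 sigma, was at 19.2 in LAPC4 and 27.7 in LAPC4-CR, and elsewhere at 0.992 or less.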
